A study of Homo sapiens with 6 samples.

Results

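The genes described here encode the condensin complexes, DNA topoisomerase IIα (TOP2A) and the chromosome surface protein Ki-67 (MKI67). They are the 10 genes SMC2, SMC4, NCAPD2, NCAPD3, NCAPG, NCAPG2, NCAPH, NCAPH2, TOP2A and MKI67, taken by symbol from the platform annotation, out of 19775 genes with probe sets of a single symbol. The 10 genes had 23 probe sets, of which 21 passed the filter on dim signals, and all 10 genes were tested. RNA came from the established human cell line SAS, grown out of an oral squamous cell carcinoma, and was measured on 6 Affymetrix arrays. The groups were cells given an siRNA against CYLD and then DMSO (untreated siCYLD, 2 arrays), control siRNA and then DMSO (untreated siCtrl, 2 arrays), CYLD siRNA and then an ALK5 inhibitor (1 array), and control siRNA and then the inhibitor (1 array). All cells grew for 2 days after transfection and then spent 48 h without serum in DMSO or inhibitor. CYLD is a deubiquitinase, and ALK5 is the type I receptor of TGF-β. The labels name neither the inhibitor nor its dose, and no second CYLD siRNA, so that effects of the siRNA on other transcripts cannot be told apart from loss of CYLD.

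Condensins are ring-shaped ATPases that fold chromatin into loops and shape mitotic chromosomes. SMC2 and SMC4 form the ATPase core of both complexes. Condensin I adds the kleisin NCAPH and the HEAT-repeat subunits NCAPD2 and NCAPG, and meets chromosomes after the nuclear envelope breaks down. Condensin II adds NCAPH2, NCAPD3 and NCAPG2 and is nuclear throughout the cell cycle. TOP2A passes DNA strands through each other to untangle sister chromatids, and Ki-67 coats mitotic chromosomes and is the usual histological marker of cycling cells. Transcripts of many such genes peak late in the cell cycle. In that class of promoters the cell cycle genes homology region (CHR) is bound by the DREAM complex in resting cells and by MYBL2 and FOXM1 complexes in dividing cells, and CCAAT boxes are bound by NF-Y.

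Promoter stretches are shown for TOP2A, MKI67 and NCAPG, the members with the lowest untreated siCYLD signal relative to siCtrl, and for NCAPH, which changed as well but had no CHR letters. Each runs over the 250 bases before the annotated start, 5′ to 3′ on the gene's strand, from RefSeq on GRCh38.p14. Capitals mark CHR letters (TTTGAA) and CCAAT boxes (CCAAT), on either strand. They lie at chr17:40417897-40418146 (minus strand) for TOP2A, chr10:128126424-128126673 (minus) for MKI67, chr4:17810729-17810978 (plus) for NCAPG and chr2:96335516-96335765 (plus) for NCAPH.
TOP2A: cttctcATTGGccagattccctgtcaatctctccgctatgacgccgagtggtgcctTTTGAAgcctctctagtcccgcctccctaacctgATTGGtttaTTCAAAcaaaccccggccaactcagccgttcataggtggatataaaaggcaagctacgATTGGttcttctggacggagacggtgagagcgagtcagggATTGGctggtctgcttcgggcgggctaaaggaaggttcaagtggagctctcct
MKI67: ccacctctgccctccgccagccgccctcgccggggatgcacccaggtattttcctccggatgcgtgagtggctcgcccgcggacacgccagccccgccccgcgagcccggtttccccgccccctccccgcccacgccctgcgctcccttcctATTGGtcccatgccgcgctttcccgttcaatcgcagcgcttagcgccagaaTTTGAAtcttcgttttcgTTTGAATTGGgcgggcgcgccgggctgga
NCAPG: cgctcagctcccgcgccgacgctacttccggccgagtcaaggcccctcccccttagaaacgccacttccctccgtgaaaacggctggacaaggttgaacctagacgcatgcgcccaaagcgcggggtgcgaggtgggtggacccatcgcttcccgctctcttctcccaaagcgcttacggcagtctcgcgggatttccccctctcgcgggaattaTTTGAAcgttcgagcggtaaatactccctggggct
NCAPH: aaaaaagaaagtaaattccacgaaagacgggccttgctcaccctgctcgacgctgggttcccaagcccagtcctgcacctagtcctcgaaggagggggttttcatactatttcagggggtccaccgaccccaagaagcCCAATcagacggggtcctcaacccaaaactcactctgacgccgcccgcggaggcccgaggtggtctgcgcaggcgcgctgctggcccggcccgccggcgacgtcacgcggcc

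Of the 10 genes, 9 had a promoter entry, 250 bases before to 50 after the start, and 8 of these 9 held TTTGAA in at least 1 window. Over all annotated promoters, 15.2% of 35116 windows held these letters, and 18.2% of 27305 genes had at least 1 such window. SMC2, SMC4 and NCAPD3 had 2 windows each and held the letters in 1 of them. In TOP2A the matches began at positions -194 and -151, in MKI67 at -47 and -29 and in NCAPG at -35, where -1 is the last base before the start. The MKI67 match nearer the start shares its last base with a CCAAT box on the other strand. CCAAT boxes were found for 5 of the 9 genes (NCAPD2, NCAPD3, NCAPH, TOP2A and MKI67), with 4 each in TOP2A and NCAPD2, against 39.7% of all genes. A match of letters is a description of the window and not evidence that a factor was bound in these cells.

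Signals are the deposited MAS5 intensities on a linear scale, and log2 differences were taken on log2(signal + 16.06). Duplicate arrays correlated at 0.988 (untreated siCYLD) and 0.987 (untreated siCtrl) across genes. The CYLD transcript, by the probe set with the lowest share left, read 77.2 and 125 in untreated siCYLD arrays, 485 and 550 in untreated siCtrl arrays, 71.1 in siCYLD with inhibitor and 421 in siCtrl with inhibitor. All 4 CYLD probe sets that passed the filter were lower with the siRNA, with 19.6% to 58.6% of the siCtrl signal left in DMSO and 16.9% to 60.02% in inhibitor. Titles and source names contradict each other for 2 arrays (siCYLD replicate 1 and siCtrl replicate 2), and the titles set the groups used here. By the first CYLD probe set above, the array titled siCYLD replicate 1 read 77.2 and the array titled siCtrl replicate 2 read 550, in the order of the titles. Nothing in the labels tells whether the duplicates came from different cultures, and the p-values therefore describe array-to-array spread that may be technical. Epithelial genes were bright in every array, with EPCAM at 20221 to 21944 and CDH1 at 11742 to 15156, whereas KRT14 read only 62.3 to 148. The basal keratin gene KRT5 read 900.5 to 1245 in the untreated arrays and rose with the inhibitor, to 5595 in siCYLD and 12525 in siCtrl (2.98 across siRNAs, adjusted p = 5.3e-06, limma). The sum over the 5 squamous markers measured was 54372 to 55804 in siCYLD arrays and 53822 to 66148 in siCtrl arrays. The leukocyte markers PTPRC, CD14 and MS4A1 and the fibroblast genes COL3A1 and LUM stayed below the filter level of 79.3 in every array. The fibroblast markers COL1A1 (284 to 399) and PDGFRB (228 to 307) and the endothelial marker PECAM1 (188 to 216) read above it in every array. The other markers of these lists read above it in some arrays only. Summed signals of 6 fibroblast markers were 829 to 894 in siCYLD arrays and 697 to 815 in siCtrl arrays, those of 6 leukocyte and endothelial markers were 400.02 to 584 in siCYLD arrays and 415 to 516 in siCtrl arrays, and 0 of the 7 tested were called for the knockdown (limma, 0 at unadjusted p under 0.05). The endothelial marker VWF read 25.0 to 71.4 in the untreated arrays and 169 in each inhibitor array, and was called across siRNAs (1.54, adjusted p = 0.016, limma), but not within either siRNA, having passed the filter only through the inhibitor arrays. The part of these marker changes in the inhibitor results was not tested.

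Most of these genes were expressed at a lower level after CYLD knockdown. In untreated cells, 9 of the 10 fell and 0 rose (adjusted p below 0.05 over 12935 genes, limma), where 11.8% of all genes tested were called lower and 9.49% higher. The median log2 difference over the 10 genes was -1.12, against -0.04 over all genes. Both siCYLD arrays lay below both siCtrl arrays for all 10 genes, as they did for 34.1% of all genes. A lower share of dividing cells and less transcript per cell cannot be told apart in bulk RNA. SMC2 passed the filter only through groups in which it was brighter than in untreated siCYLD cells, while the probe sets representing the other 9 genes had every group mean above the filter level, and 8 of those 9 fell.

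**Figure D1:**
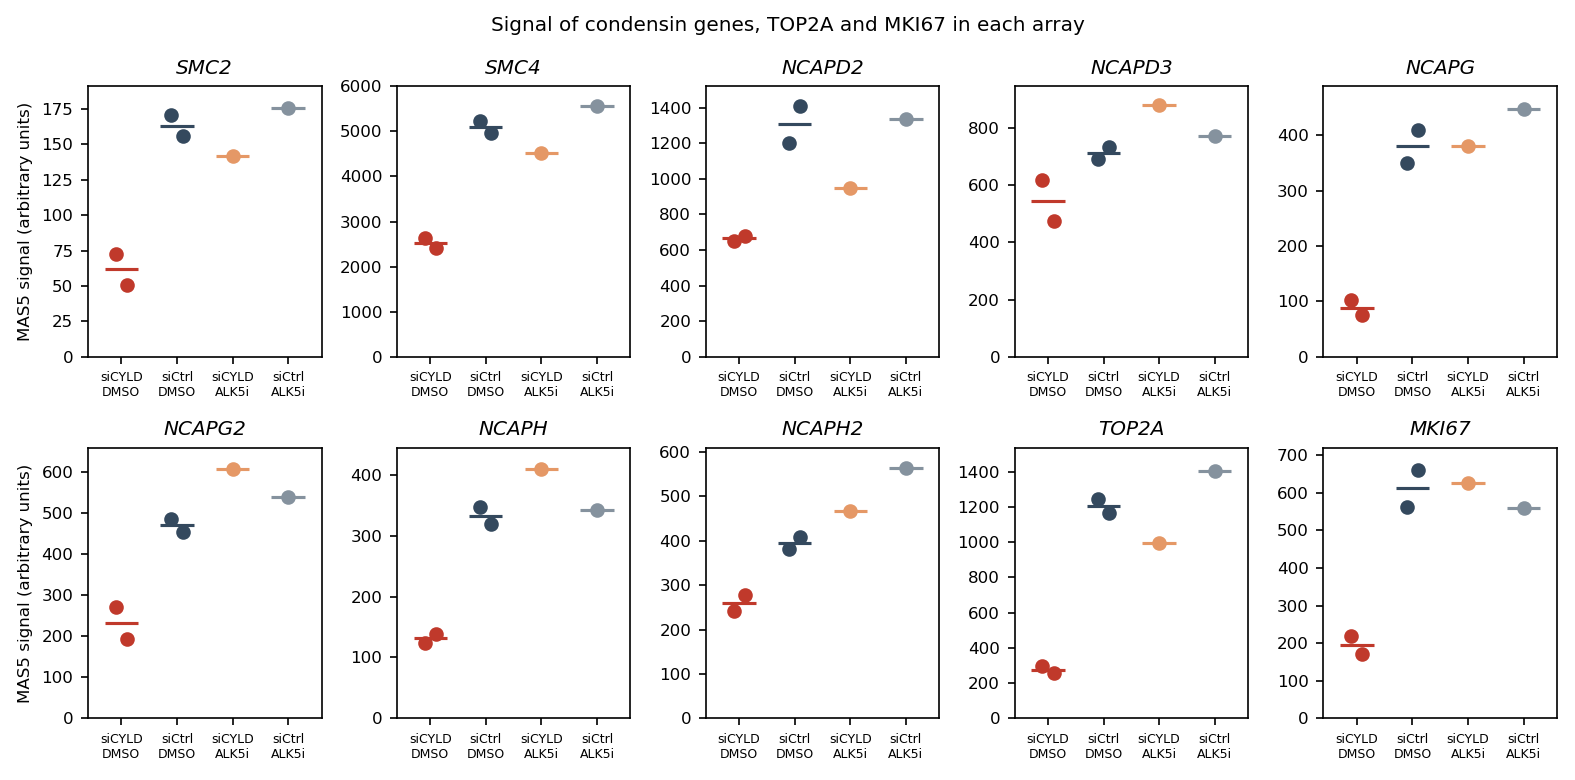
MAS5 signal (arbitrary units, linear axis from 0) of the probe set representing each gene, 1 point per array and a line at each group mean, for siCYLD and siCtrl in DMSO (2 arrays each) and with the ALK5 inhibitor (ALK5i, 1 array each). The untreated siCYLD points are the lowest in all 10 panels, as in TOP2A, where they read 294 and 259.

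TOP2A had the largest fall of the 10. It read 294 and 259 in untreated siCYLD arrays, against 1245 and 1166 in untreated siCtrl arrays. Its groups were far apart, with 23.0% of the siCtrl signal left, a log2 difference of -2.06 ± 0.13 (standard error, 2 arrays against 2) and an adjusted p of 3.6e-07 (limma). The second bright TOP2A probe set gave -2.18, and another, dim one had overlapping groups at signals of 3.04 to 38.3 in the 4 untreated arrays.

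MKI67 read 219.9 and 172 in untreated siCYLD arrays, against 563 and 662 in untreated siCtrl arrays. The groups did not overlap, and the difference was -1.57 ± 0.17 (adjusted p = 2e-05, limma). The other 3 MKI67 probe sets had differences of -1.19 to -1.77, all called in a fit over 24537 probe sets, in which 9.06% of probe sets were called lower.

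Among condensin I subunits, NCAPG fell the most. NCAPG, a HEAT-repeat subunit, read 102 and 75.0 in untreated siCYLD arrays, against 351 and 409 in untreated siCtrl arrays. That left 23.3% of the siCtrl signal (log2 difference -1.93 ± 0.20, adjusted p = 1.7e-05, limma), and its second probe set gave -1.72. NCAPH, the condensin I kleisin that bridges the SMC heads, read 124 and 139 in untreated siCYLD arrays and 347 and 319 in untreated siCtrl arrays. Its log2 difference was -1.24 ± 0.18 (adjusted p = 0.0003, limma). NCAPD2, the other HEAT-repeat subunit, read 653 and 679 in untreated siCYLD arrays and 1201 and 1411 in untreated siCtrl arrays, and fell by 0.95.

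Of the core subunits, SMC4 read 2640 and 2405 in untreated siCYLD arrays, against 5233 and 4968 in untreated siCtrl arrays. The replicates were close together, and SMC4 fell by 1.01 ± 0.10 on the log2 scale (adjusted p = 8.9e-06, limma), with its other probe sets at -1.14 and -0.72. SMC2, its partner, was dimmer and read 72.4 and 50.9 in untreated siCYLD arrays and 171 and 156 in untreated siCtrl arrays. It fell by 1.22 ± 0.28 (adjusted p = 0.0067, limma). A second SMC2 probe set near the filter level gave -0.48 and was not called (adjusted p = 0.37, limma over probe sets). Averaging the pair of probe sets ended the SMC2 call (-0.85, adjusted p = 0.063), as did leaving out identifiers ending in _x_at or _s_at (-0.48, adjusted p = 0.36, limma).

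Of the 3 condensin II subunits, 2 fell. NCAPG2, a HEAT-repeat subunit, read 272 and 194 in untreated siCYLD arrays and 485 and 455 in untreated siCtrl arrays, a fall of 0.98 ± 0.18 on the log2 scale (adjusted p = 0.0014, limma). NCAPH2, the condensin II kleisin, read 242 and 277 in untreated siCYLD arrays and 382 and 409 in untreated siCtrl arrays, a fall of 0.58 ± 0.16 (adjusted p = 0.019). NCAPD3, the other HEAT-repeat subunit of condensin II, read 618 and 474 in untreated siCYLD arrays and 691 and 734 in untreated siCtrl arrays. It was the only member not called, at -0.39 with a 95% interval of -0.70 to -0.07 (adjusted p = 0.082, limma). It was called, at -0.57, without siCYLD replicate 1 (adjusted p = 0.014, limma).

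The NCAPH2 result depended on the probe set. Of 4 kept probe sets, the brightest represented the gene at -0.58. The others gave -0.69, -0.10 and 0.52 and were not called in the probe set fit, and the fifth was dim, at signals of 45.2 to 63.5. Leaving out siCYLD replicate 1 (-0.49, adjusted p = 0.086) or siCtrl replicate 2 (-0.54, adjusted p = 0.084) ended the call. So did dropping the filter (0.067 as adjusted p), a constant prior variance (0.057), the average of its probe sets (-0.21) and the exclusion of _x_at and _s_at identifiers (-0.10), all by limma.

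**Figure D2:**
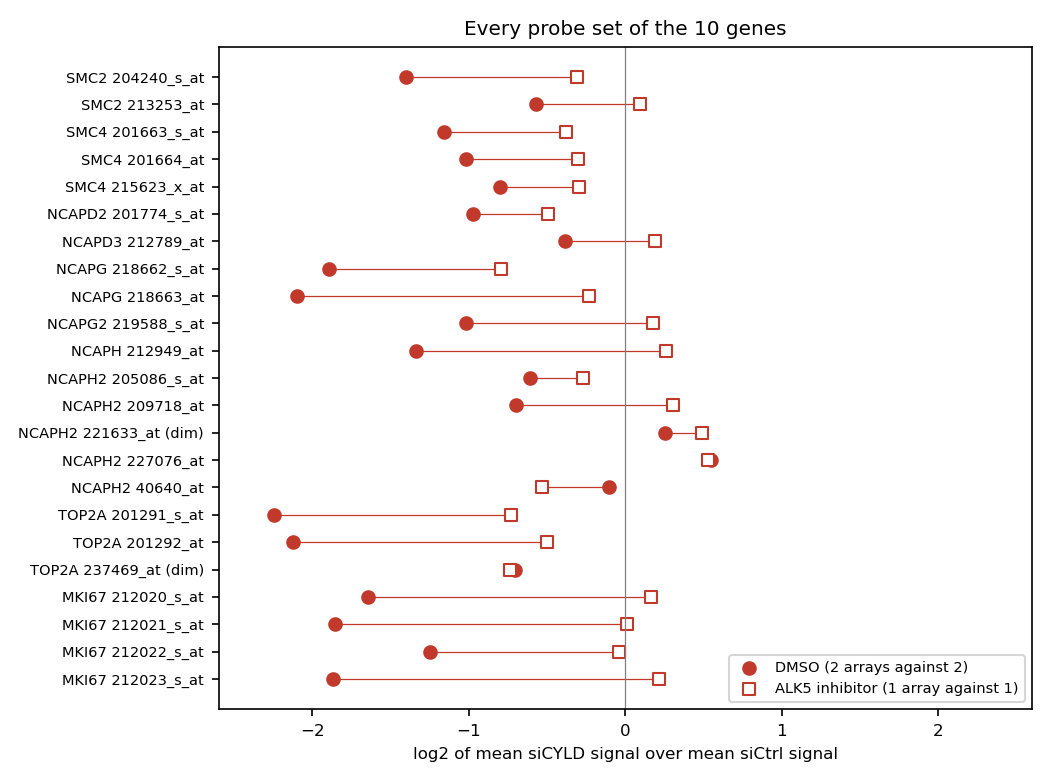
Log2 of the mean siCYLD signal over the mean siCtrl signal (no offset) for each of the 23 probe sets, in DMSO (filled circles, 2 arrays against 2) and with the ALK5 inhibitor (open squares, 1 against 1), joined by a line, with "dim" marking probe sets below the filter. The DMSO points of SMC4, NCAPG and MKI67 lie left of 0 for every probe set, and the NCAPH2 probe sets lie on either side of it.

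Each condensin I subunit was set against the condensin II subunit of the same kind, as a log2 ratio within each array. The NCAPG over NCAPG2 ratio was -1.28 and -1.20 in untreated siCYLD arrays, against -0.45 and -0.15 in untreated siCtrl arrays. The NCAPH over NCAPH2 ratio was -0.88 and -0.92 in untreated siCYLD arrays and -0.14 and -0.34 in untreated siCtrl arrays. The NCAPD2 over NCAPD3 ratio was 0.08 and 0.50 in untreated siCYLD arrays and 0.78 and 0.93 in untreated siCtrl arrays. All 3 ratios were lower in siCYLD, by 0.94, 0.66 and 0.56, with no overlap. Among single genes, 34.1% had both siCYLD arrays below both siCtrl arrays, and the share over ratios of other gene pairs was not computed. An exact permutation test, two-sided, gave p = 0.333 for each. That is the smallest p that 2 arrays against 2 can give, so the test cannot decide. In inhibitor the NCAPG over NCAPG2 ratio was -0.65 in siCYLD and -0.26 in siCtrl, the NCAPD2 over NCAPD3 ratio 0.10 in siCYLD and 0.78 in siCtrl, and the NCAPH over NCAPH2 ratio -0.18 in siCYLD and -0.70 in siCtrl. Only the last was higher in siCYLD, and that order rests on the NCAPH2 probe set: the siCYLD minus siCtrl log2 difference in inhibitor was 0.25 for NCAPH, against 0.28 and 0.48 for 2 other NCAPH2 probe sets.

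With the ALK5 inhibitor, the probe sets that stand for the 10 genes read within 1.5-fold between the siCYLD and the siCtrl array, where 9.67% of all genes were at least that much lower and 10.8% at least that much higher. This did not hold for every probe set. The second bright TOP2A probe set read 897 in siCYLD and 1490 in siCtrl, so that 60.2% of the siCtrl signal was left, and the second NCAPG probe set read 293 in siCYLD and 509 in siCtrl, with 57.5% left. By the probe sets that stand for the genes, TOP2A read 995 in siCYLD and 1406 in siCtrl, so that 70.8% of the siCtrl signal was left, and NCAPG read 381 in siCYLD and 447 in siCtrl. By the same probe sets, the siCYLD value was the higher one for 4 genes. MKI67 read 627 in siCYLD and 560.4 in siCtrl, NCAPH 409.7 in siCYLD and 342 in siCtrl, NCAPG2 608 in siCYLD and 538 in siCtrl, and NCAPD3 882 in siCYLD and 772 in siCtrl. The siCYLD array thus held 112% to 119.9% of the siCtrl signal of these genes. The shares were lower for the core subunits, at 80.6% for SMC2 (142 in siCYLD, 176 in siCtrl) and 81.2% for SMC4 (4518 in siCYLD, 5561 in siCtrl). They were 71.1% for NCAPD2 (949 in siCYLD, 1334 in siCtrl) and 82.8% for NCAPH2 (468 in siCYLD, 565 in siCtrl). Other kept probe sets gave 97.1% to 116.0% for MKI67, 106.9% for SMC2 and 69.1% to 144.5% for NCAPH2, so the order of the siRNAs depended on the probe set there. These are single arrays with no replicate check and no p-value. The median log2 difference in the pair was -0.24 over the 10 genes and -0.01 over all genes.

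Within siCYLD cells, all 10 genes rose with the inhibitor (adjusted p below 0.05, limma, 1 array against 2), where 12.2% of all genes were called higher. The fit takes the single inhibitor array to have the spread of the duplicates. SMC2 passed the filter only through groups brighter than untreated siCYLD cells, and the inhibitor array compared here is among them. The rises ran from 0.50 ± 0.15 for NCAPD2 to 1.93 ± 0.25 for NCAPG, with TOP2A at 1.79 ± 0.16 and MKI67 at 1.61 ± 0.20. NCAPH rose by 1.53 and NCAPG2 by 1.34. By the probe sets that stand for the genes, the signal in siCYLD cells with inhibitor was 72.7% (NCAPD2) to 129% (NCAPG2) of the untreated siCtrl mean. TOP2A was at 82.5% and MKI67 at 102%. Other probe sets differed, with MKI67 at 72.3%, 89.0% and 99.4% and the second bright TOP2A probe set at 72.3%. The kept NCAPH2 probe sets ran from 59.2% to 169.9%. The untreated siCYLD arrays serve in both this comparison and the knockdown comparison, so the fall and the rise are not independent measurements. NCAPD2, NCAPD3 and SMC2 were not called without the intensity trend (adjusted p of 0.12, 0.10 and 0.055, limma) and with no filter (0.071, 0.060 and 0.12).

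Single arrays decided some of these calls. SMC2 (0.83, adjusted p = 0.13, limma) and NCAPD3 (0.50, adjusted p = 0.079) were lost without siCYLD replicate 2, NCAPD2 (0.47, adjusted p = 0.070) was lost without siCYLD replicate 1, and SMC2 was lost without the siCtrl inhibitor array (adjusted p = 0.052). NCAPH2 turned to -0.58 (not called) when _x_at and _s_at identifiers were left out, and averaged 0.22 over its probe sets (not called). SMC2 was not called in either case.

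Within siCtrl cells the inhibitor gave no called difference in any of the 10 genes, with 1 (NCAPH2, 0.50) at unadjusted p under 0.05 (limma). Of all genes 5.02% were called higher and 4.34% lower. TOP2A differed by 0.22 with a 95% interval of -0.13 to 0.57, MKI67 by -0.12 with an interval of -0.56 to 0.32 and NCAPG by 0.23 with an interval of -0.30 to 0.76. The intervals leave room for changes of these sizes, so they do not show that the levels were equal.

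The difference between the siRNAs was tested against the inhibitor directly. Of the 10 genes, 4 had a siCYLD minus siCtrl difference that was higher with the inhibitor than in DMSO, where 0.982% of all genes were called in that direction. They were MKI67 (interaction 1.73 ± 0.29, adjusted p = 0.0076), NCAPG (1.70 ± 0.35, adjusted p = 0.026), TOP2A (1.57 ± 0.23, adjusted p = 0.0041) and NCAPH (1.49 ± 0.31, adjusted p = 0.031), all by limma. SMC4 (0.71, adjusted p = 0.056) and NCAPG2 (1.16, adjusted p = 0.087) missed the threshold, and NCAPH2 had the smallest value, at 0.32. In a fit over probe sets, the second NCAPG probe set gave an interaction of 0.96 (adjusted p = 0.28, limma). All 4 calls were lost with no filter (adjusted p of 0.050 to 0.20, with 6 members at unadjusted p under 0.05) and without the intensity trend (0.15 to 0.20, with 7 members). Without the trend 0 of all 12935 genes were called, against 216 in the main fit. Averaging its probe sets likewise ended the NCAPG call (1.33, adjusted p = 0.11). Without siCtrl replicate 1 the second NCAPG probe set became the brighter one and stood for the gene, at 1.17 (adjusted p = 0.11), while the first gave 1.81 and stayed called when it was kept (adjusted p = 0.020, limma). With that array left out and the probe sets kept, 3 members were called instead of 4, and NCAPH had 1.44 (adjusted p = 0.0504). Without siCYLD replicate 1, 6 members were called instead of 4.

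**Figure D3:**
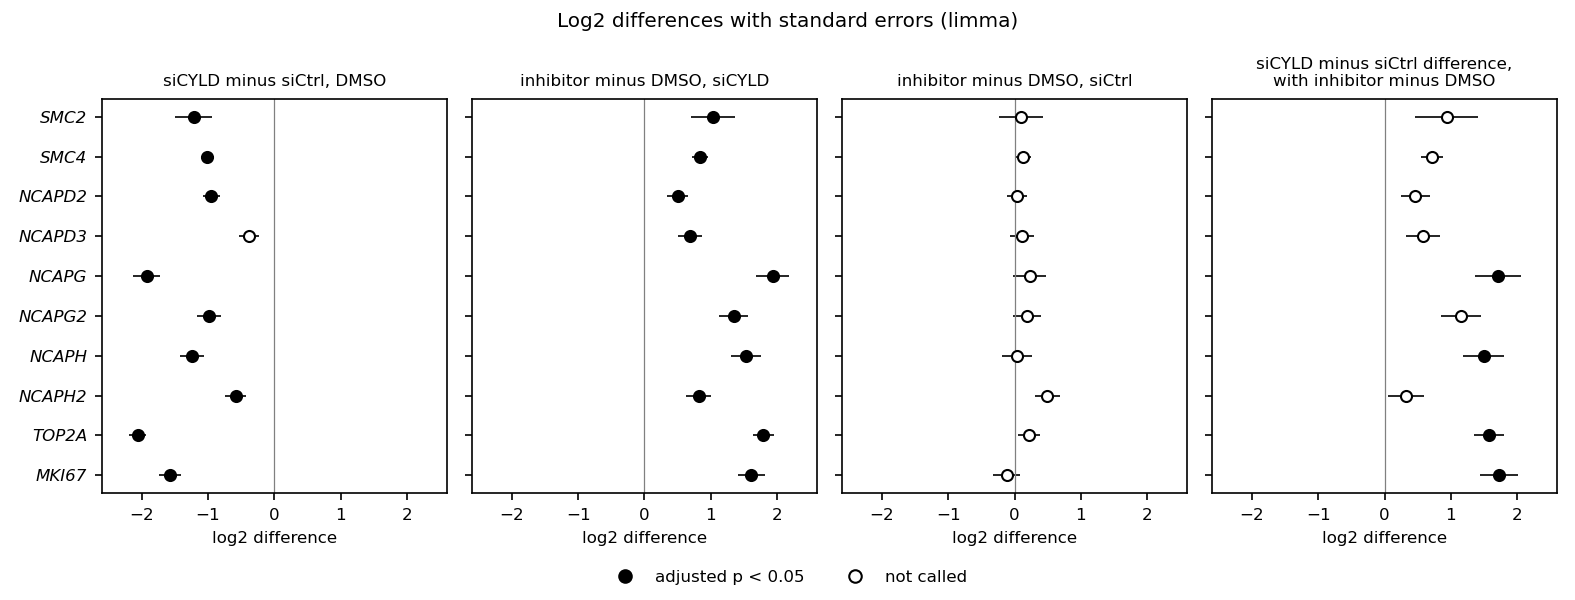
Log2 differences with standard errors for each gene, from left to right for siCYLD minus siCtrl in DMSO, inhibitor minus DMSO in siCYLD, inhibitor minus DMSO in siCtrl, and the change of the siCYLD minus siCtrl difference with the inhibitor. Filled points are called at adjusted p below 0.05 (9, 10, 0 and 4 of 10 genes) and open points are not.

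Across both siRNAs, an additive fit called 5 of the 10 genes higher with the inhibitor (NCAPG, TOP2A, NCAPG2, NCAPH2 and SMC4) and 0 lower, against 11.2% of all genes called higher and 8.82% lower. This fit averages the inhibitor responses of both siRNAs. Of these 5 genes, the interaction was called for NCAPG and TOP2A and not for NCAPG2, NCAPH2 and SMC4. With 1 inhibitor array left out, the fit becomes the comparison within the siRNA of the other, so those counts are not a separate check. The count of the additive fit moved with single arrays. It was 9 without the siCtrl inhibitor array and 0 without the siCYLD inhibitor array (2 genes at unadjusted p under 0.05, limma; TOP2A, NCAPG and MKI67 were then represented by other probe sets), 1 without either untreated siCYLD array, and 3 without either untreated siCtrl array.

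The same additive fit gives the knockdown difference without both arrays whose labels disagree, though it then weighs the inhibitor pair more. It called 4 of the 10 genes lower, namely TOP2A (-1.34 ± 0.27), NCAPG (-1.12 ± 0.32), SMC4 (-0.71 ± 0.19) and NCAPD2 (-0.65 ± 0.18). MKI67 had -0.73 there (adjusted p = 0.15, limma) and NCAPH -0.49 (adjusted p = 0.36). With all 6 arrays the additive fit called 7 of the 10. The share of all genes called lower by the additive fits is not given here, so these counts have no background beside them. The 11.8% of all genes called lower belongs to the fit of 4 group means. Grouping the untreated arrays by source name gave 0 calls among the 10 genes, with 0 at unadjusted p under 0.05 (limma). In that grouping the array with a CYLD signal of 550 counts as siCYLD and the array with 77.2 as siCtrl.

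Of the RNA quality measures, the ACTB ratio and the spike controls moved with the siRNA, and the GAPDH ratio did not. The 3′ to 5′ signal ratio of ACTB was 2.26 and 2.48 in untreated siCYLD arrays, against 3.41 and 3.21 in untreated siCtrl arrays. In inhibitor it was 2.38 in siCYLD and 3.67 in siCtrl, where the siCYLD signals were 70.8% to 119.9% of siCtrl for the probe sets that stand for the 10 genes and 57.5% to 144.5% over all 21 kept ones. The GAPDH ratio was 1.80 and 1.91 in untreated siCYLD arrays and 2.14 and 1.79 in untreated siCtrl arrays, with 1.97 in siCYLD and 1.87 in siCtrl in inhibitor. Poly-A spike controls averaged 9.68 and 9.43 on the log2 scale in untreated siCYLD arrays, 9.28 and 9.19 in untreated siCtrl arrays, 9.46 in siCYLD with inhibitor and 9.11 in siCtrl with inhibitor. Scaling to these spikes shifted the median knockdown difference of all genes to -0.36 and that of the 10 genes to -1.43, and all 10 were then called lower. More genes were called everywhere with this scaling, 4174 of 13052 in either direction, against 2757 of 12935 in the main fit. With quantile normalization the count was 9. The part of RNA quality in the knockdown differences was not tested further.

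Other genes of chromosome structure and division gave a background for these values. The lists were chosen with earlier results of these data known. Of 16 cohesin genes tested, 7 fell and 0 rose with the knockdown, with a median of -0.36. ESPL1, which encodes separase, fell by 1.34, the cohesin protector CDCA5 (sororin) by 1.20, the securin gene PTTG1 by 1.02 and the ring subunit SMC1A by 0.70. STAG1, a subunit that binds the ring, had the smallest difference, at -0.04. Of 9 genes of the SMC5/6 complex and its partners, 3 fell (NSMCE1 by 0.59, SLF1 by 0.55 and NSMCE3 by 0.39) and 0 rose, with SMC6 itself at 0.00.

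Of 5 topoisomerase genes other than TOP2A, 0 were called lower (1 of the 5, in the other direction, had an unadjusted p under 0.05, limma). The mitochondrial TOP1MT rose by 0.68 (3706 and 3980 in untreated siCYLD arrays, against 2238 and 2561 in untreated siCtrl arrays). TOP2B, the isoform that non-dividing cells also express, had -0.10 (adjusted p = 0.48, limma), and TOP3A had the smallest difference, at 0.03.

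Mitotic kinase and chromosome periphery genes fell in 13 of 18 cases and rose in 0, with a median of -1.26. CCNB2 fell by 2.25, CDK1, the kinase that phosphorylates condensins at mitotic entry, by 1.91, CCNB1 by 1.80 and NUSAP1 by 1.66. CDK1 read 224 and 173 in untreated siCYLD arrays and 747 and 824 in untreated siCtrl arrays, and with inhibitor it read 877 in siCYLD and 1180 in siCtrl. AKAP8, a chromatin anchor, had the smallest difference, at -0.06. Of the 18 genes, 14 rose with the inhibitor in siCYLD cells and 2 rose in siCtrl cells. Among those that fell, and among these 14, were KIF4A (68.3 and 77.4 in untreated siCYLD arrays) and INCENP (66.6 and 93.5 there). By their log2 means, both passed the filter only through groups where they were brighter than in untreated siCYLD cells.

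Among 16 DREAM and E2F regulators, 5 fell and 1 rose with the knockdown (median -0.30). The activators MYBL2 and FOXM1 fell by 1.79 and 1.42, RBL1, which encodes the pocket protein p107, by 0.97 and E2F2 by 0.66, while RBBP4 had the smallest difference, at 0.02. MYBL2 read 147 and 154 in untreated siCYLD arrays, against 651 and 480.4 in untreated siCtrl arrays, and with inhibitor 678 in siCYLD and 751 in siCtrl. The interaction was called for FOXM1 (1.47, adjusted p = 0.0026) and MYBL2 (1.64, adjusted p = 0.013, limma).

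DNA replication genes fell in 11 of 14 cases and rose in 0 (median -0.79), with MCM7 at -1.01 and the smallest difference, -0.41, for MCM6. ORC1 had -1.07, but read only 31.7 and 64.0 in untreated siCYLD arrays, against 125 and 104 in untreated siCtrl arrays, and passed the filter only through the groups where it was brighter. With the inhibitor in siCtrl cells, 7 of these 14 rose (median 0.72) whereas 0 of the 10 condensin, TOP2A and MKI67 genes were called (median 0.12). The difference between these lists was not tested. For the interaction, 0 of the 14 were called, with 7 at unadjusted p under 0.05 (limma).

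**Figure D4:**
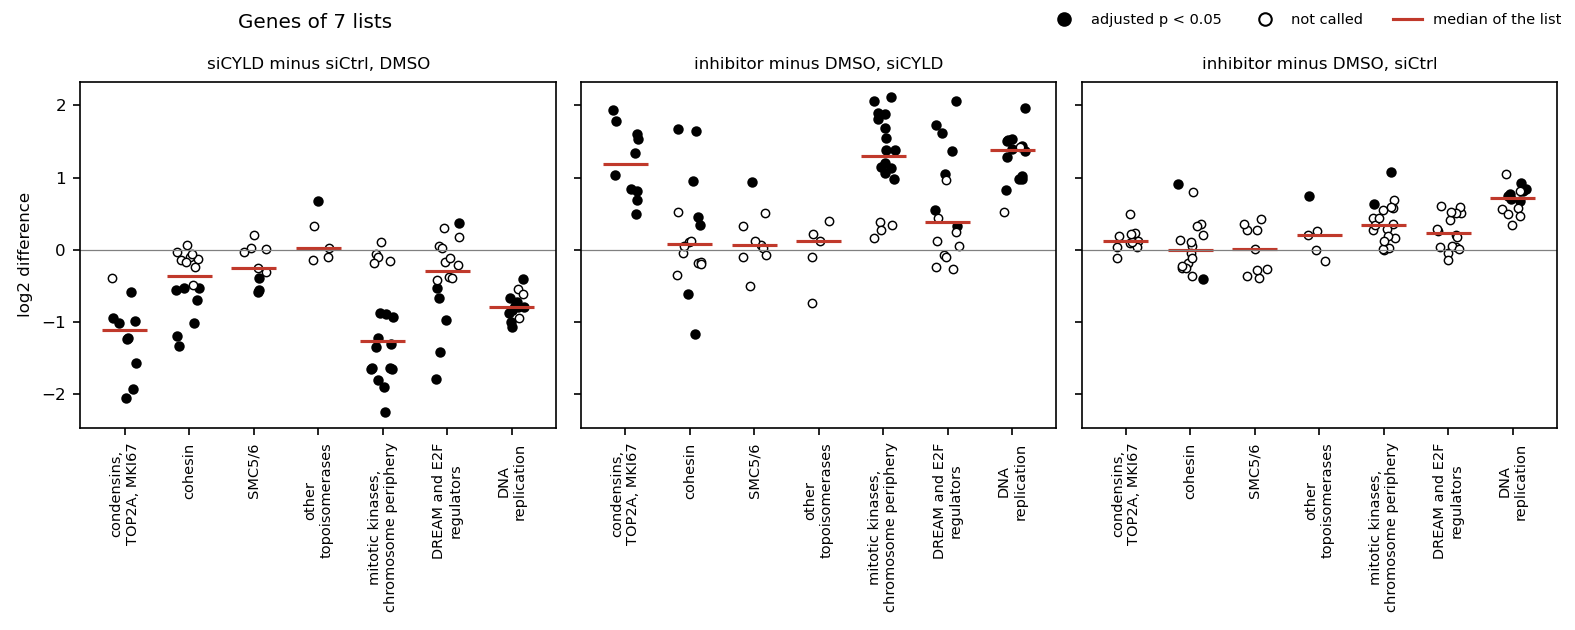
Log2 difference of each tested gene in 7 lists, for siCYLD minus siCtrl in DMSO, inhibitor minus DMSO in siCYLD and inhibitor minus DMSO in siCtrl, with filled points called at adjusted p below 0.05 and red lines at list medians. The condensin, TOP2A and MKI67 genes have medians of -1.12, 1.19 and 0.12 in the 3 panels, and the DNA replication genes -0.79, 1.39 and 0.72.

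Over the 6 arrays, the genes outside the list whose log2 values followed TOP2A most closely among 12935 were TTK, GMNN, DYNC2I2, SKA1 and MELK, at Pearson r of 0.997 to 0.999. TTK read 88.7 and 81.8 in untreated siCYLD arrays and 450.0 and 391 in untreated siCtrl arrays, and with inhibitor 337 in siCYLD and 514 in siCtrl. The members themselves had r from 0.81 (NCAPD3) to 0.999 (SMC4) with TOP2A. These values describe 6 arrays that fall into a low pair and 4 higher arrays, carry no test, and were picked as the highest of all genes.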

How the data were processed

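RNA of SAS cells was measured on 6 Affymetrix arrays. The deposited values are MAS5 intensities (linear scale, 1 value for a probe set on an array), computed by the authors per the submitters' processing notes. The trimmed mean was equal on all arrays (500.1, trimming 2% at each end). Array number limits precision.

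Of 54675 probe sets, 41091 non-control ones had 1 symbol, 1801 several and 11721 none, and the latter 2 kinds were not used. RefSeq held the Entrez identifiers of 41037, changing 0 symbols. Signals were analysed as log2(signal + 16.06), with the 20th percentile of all values as offset. Probe sets whose highest group mean exceeded the median of all values (signal 79.3) were kept (24537), and the one with the highest mean stood for its gene (12935 genes). The offset shrinks fold changes of dim genes.

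Linear models with intensity trend were fitted with limma 3.58.1 (R 4.3.3) over all genes, with Benjamini-Hochberg adjustment, two-sided. A model of 4 group means had 2 residual and 10.9 prior degrees of freedom, and an additive model had 3 and 7.98. On simulated data for the knockdown comparison (12935 genes), 92% of genes changed by 1 and 99% of those changed by 2 on the log2 scale were recovered. The simulated noise was independent and normal, with a spread set by intensity alone. The inhibitor and interaction comparisons were not simulated. The members and lists were chosen with earlier results of these data known. All members were named, and of each companion list the 4 largest called knockdown differences at most and the smallest one, plus the 5 genes most like TOP2A. TOP2B was added after its values were seen. KIF4A and INCENP were named outside this rule, for how they passed the filter. The rule also covers the replication genes GINS1 (knockdown difference -0.88) and CDC6 (-0.84), which are not described above. Alternatives covered the offset, scaling, filter, probe set choice, variance model, left-out arrays, labels and replicate block.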

Additional observations from a re-analysis of the deposited data

Results flagged for a closer look

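The knockdown difference differed between cells with and without the inhibitor for 4 genes, by the interaction test of limma. The siCYLD minus siCtrl difference was higher with the inhibitor by 1.73 on the log2 scale for MKI67, 1.70 for NCAPG, 1.57 for TOP2A and 1.49 for NCAPH. In DMSO these differences were -1.57, -1.93, -2.06 and -1.24, and in the inhibitor pair 0.16, -0.22, -0.49 and 0.25, by the probe sets that stand for the genes. The second bright probe sets of NCAPG and TOP2A differed by -0.77 and -0.72 in the inhibitor pair. Each inhibitor group held 1 array.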

How the results depend on the processing

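The knockdown count (9 of 10 genes lower) was 7 to 10 under the other settings, with 3 exceptions. It was 4 of 7 testable genes with _x_at and _s_at identifiers excluded, and 0 with arrays grouped by source name. Without both arrays whose labels disagree it was 4, but by the additive fit. That fit averages the siRNA difference over DMSO and inhibitor, so its 4 is not the same measure as the 9 in DMSO. All kept probe sets of NCAPD2, NCAPG2 and MKI67 end in _s_at, so these genes could not be fitted with such identifiers excluded. The interaction count (4) fell to 0 with no filter, which tests more genes, and to 0 without the intensity trend, the cause of which was not tested. Over all genes the interaction called 216 of 12935 in the main fit, 33 of 19775 with no filter and 0 of 12935 without the trend. The inhibitor count across siRNAs (5) was 8 with spike scaling, 1 with no filter, 3 for the mean of probe sets, 3 without _x_at and _s_at, 1 without the trend, 2 with robust moderation and 3 without both arrays whose labels disagree. The count in siCYLD cells (10) was 5 of 7 without _x_at and _s_at, and otherwise 7 to 10. In siCtrl cells it was 0 under every setting tried.

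Leaving out 1 array at a time, the counts ran from 8 to 9 (knockdown), 3 to 6 (interaction), 0 to 9 (inhibitor across siRNAs) and 8 to 10 (in siCYLD). Without _x_at and _s_at the NCAPH2 interaction turned to -0.38 and its inhibitor difference in siCYLD to -0.58. Single-gene differences for the interaction and the inhibitor, the probe set fit, and the left-out arrays with probe sets kept, were added after the data were seen.

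With the replicate number as a block the knockdown count was 10, NCAPD3 being called (-0.39, adjusted p = 0.027). Same-numbered arrays correlated at 0.045 in their deviations, so the numbers were not taken to pair the arrays. The interaction could not be fitted without either inhibitor array, or without both arrays whose labels disagree, which leaves no residual degrees of freedom. Dim signals limit SMC2.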
